A study of Mus musculus with 16 samples.

Results

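Toll-like receptor and inflammasome genes were described in mouse oligodendrocytes, the glia that form myelin, which had been isolated from brain by magnetic sorting. The 10 genes were chosen by symbol: the receptors Tlr2, Tlr4 and Tlr7, their adaptor Myd88, the inflammasome genes Nlrp3, Pycard and Casp1, and the cytokine genes Il1a, Il1b and Tnf. They are 10 of the 53801 genes in the deposited table, each symbol matched 1 row, and all 10 were among the 21768 genes with enough counts to be tested. The 16 mRNA libraries came from male mice, 4 per group. App_HFD and App_NCD mice were homozygous for the App NL-G-F knock-in, in which the mouse App gene, under its own promoter, carries a humanised amyloid-β sequence with the Swedish, Beyreuther/Iberian and Arctic mutations. WT_HFD and WT_NCD mice were C57BL/6J Jcl animals without it. HFD groups ate a high-fat diet (60.0% of energy as fat) and NCD groups a control diet (12.5%), from 2 months of age for 6 months, so that all mice were 8 months old. Wild-type mice were bought and knock-in mice were bred as inbred lines, so genotype and the origin of the mice cannot be told apart. The comparisons ask how the knock-in changes these genes on each diet, how the diet changes them in each genotype, and whether the diet effect depends on genotype.

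Toll-like receptors sense microbial products and some molecules released by damaged cells. Most of them signal through the adaptor MyD88 to the transcription factor NF-kB, which turns on the genes of TNF, interleukin-1 and NLRP3. In a following step NLRP3 gathers the adaptor ASC, encoded by Pycard, and the protease caspase-1 into the inflammasome, where caspase-1 cuts the interleukin-1β precursor to its active form. In the brain these genes are expressed mainly by microglia, the resident macrophages, and messenger RNA levels say nothing of whether the inflammasome was assembled.

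The upstream sequences of Tnf and Tlr2, which differed most between genotypes, and of the neighbouring genes Il1a and Il1b are shown, because NF-kB and AP-1 sites and TATA boxes are known features of cytokine promoters. They are from RefSeq (GRCm38.p6), read 5′ to 3′ on the strand of the gene and limited to bases outside annotated exons. Capitals mark the letters of an NF-kB pattern (GGG, any 5 bases, CC), TGANTCA (AP-1) and the TATA box (TATAAA); they were searched on both strands, as were GAGGAA (the core of PU.1, the macrophage lineage factor) and an interferon response pattern (GAAA, any 2 bases, GAAA).
Tnf, chr17:35202008-35202257, minus strand: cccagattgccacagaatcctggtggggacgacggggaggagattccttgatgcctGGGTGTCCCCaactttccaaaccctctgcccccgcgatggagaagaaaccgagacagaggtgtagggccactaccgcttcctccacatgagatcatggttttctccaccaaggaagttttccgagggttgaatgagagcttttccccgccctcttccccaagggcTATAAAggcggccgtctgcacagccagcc
Tlr2, chr3:83841768-83841858, minus strand: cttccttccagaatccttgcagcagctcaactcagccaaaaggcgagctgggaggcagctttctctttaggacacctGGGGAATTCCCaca
Il1a, chr2:129309973-129310222, minus strand: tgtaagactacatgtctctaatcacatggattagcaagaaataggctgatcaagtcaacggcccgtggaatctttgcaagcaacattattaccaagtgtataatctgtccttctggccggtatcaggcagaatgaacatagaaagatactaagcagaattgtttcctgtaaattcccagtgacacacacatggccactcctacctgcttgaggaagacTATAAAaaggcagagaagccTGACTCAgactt
Il1b, chr2:129371140-129371389, minus strand: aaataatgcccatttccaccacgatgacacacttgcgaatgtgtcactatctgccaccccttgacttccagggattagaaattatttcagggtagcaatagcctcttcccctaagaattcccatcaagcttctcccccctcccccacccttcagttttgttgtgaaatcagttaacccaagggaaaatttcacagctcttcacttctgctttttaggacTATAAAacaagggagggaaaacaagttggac
In Tnf the NF-kB pattern lay 194 to 185 bases before the RefSeq start, as GGGTGTCCCC, and the TATA box 29 to 24 bases before it. In Tlr2 the pattern occurred in overlapping copies 173 to 163 bases before the start and included the palindrome GGGAATTCCC. Il1a had a TATA box 32 to 27 bases and an AP-1 heptamer, TGACTCA, 12 to 6 bases before its start, and Il1b had a TATA box 31 to 26 bases before its start. Among 32851 promoter windows of 250 bases, 45.8% held the NF-kB pattern, 6.75% the AP-1 pattern and 12.4% TATAAA, so the NF-kB pattern alone is common. The exact letters of the Tlr2 palindrome were in 0.0335% of the windows, and those of the Tnf match in 0.0944%. Those of the Nlrp3 and Casp1 matches were in 0.0731% and 0.451%. These letters were read from the members after matching, and any single string of this length is rare, so the shares do not single out these sites. Windows were found for 8 of the 10 genes, all but Tlr4 and Tlr7, and were searched whole, bases in annotated exons included; the NF-kB pattern was in 4 of the 8, TATAAA in 4 and the AP-1 pattern in 1. The PU.1 core was in 5 of the 8 (23.3% of windows), counting Pycard, whose whole window lies in annotated exons, and the interferon pattern in 1, Myd88 (2.98%). A match describes letters in a window, not a bound site.

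Totals ran from 64538297 to 217925484 counts per library, and the smallest count of any of the 10 genes in a library was 144 (Myd88 in App_NCD 553). App_NCD 553 stood apart: it had 18928 genes above 0, against 27151 to 30617 in the other 15 libraries, and 39.4% of its counts were mitochondrial, against 1.22% to 4.62%, so results are given with and without it. The level of App itself, in CPM (counts scaled to a common library total) after scaling by the trimmed mean of M-values (TMM), was 2141 to 2551 in App_HFD and 2095 to 2315 in App_NCD, against 2719 to 3383 in WT_HFD and 2377 to 4011 in WT_NCD; because the knock-in changes coding sequence and leaves the promoter, this level is no check of the genotype labels. All 15 oligodendrocyte and myelin markers were above 0 in every library, with sums of 39330 to 50930 CPM in App_HFD, 35730 to 65290 CPM in App_NCD, 52020 to 62650 CPM in WT_HFD and 46980 to 61640 CPM in WT_NCD. Without App_NCD 553 the App_NCD sums were 35730 to 46250 CPM. In mean log2 CPM of this list, App minus WT was -0.245 on the high-fat diet (exact permutation p = 0.0286). On the control diet it was -0.501 (exact p = 0.0857), or -0.311 (exact p = 0.114) with App_NCD 553 dropped. Markers of microglia were also present in every library. The 15 homeostatic microglia markers summed to 9415 to 15870 CPM in App_HFD and 7677 to 14510 CPM in App_NCD, against 3113 to 5839 CPM in WT_HFD and 4136 to 6809 CPM in WT_NCD, and none was at 0 throughout a group. The 16 disease-associated microglia markers summed to 17920 to 29780 CPM in App_HFD and 10860 to 27830 CPM in App_NCD, against 4320 to 5311 CPM in WT_HFD and 5079 to 6679 CPM in WT_NCD. In such bulk samples fewer cells of a type and less RNA per cell cannot be told apart.

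On both diets the knock-in libraries had higher levels of most of these genes under TMM scaling (edgeR quasi-likelihood test, Benjamini-Hochberg adjustment over all tested genes, threshold 0.05). On the high-fat diet 8 of 10 rose and no fold change was negative, beside 5.09% of all tested genes called higher; the median log2 fold change was 2.04 for the 10 genes and 0.01 for all tested genes. On the control diet 8 of 10 rose and no fold change was negative, beside 6.50% of all tested genes, with medians of 1.80 and -0.02. The largest changes were in Tnf, the gene of tumour necrosis factor, at 8.86-fold on the high-fat and 8.345-fold on the control diet, and in Tlr2, at 7.29-fold and 5.93-fold. The smallest were in Myd88 and Tlr4, below 2-fold on both diets. All 10 genes were higher in every App_HFD library than in any WT_HFD library, beside 15.0% of all tested genes, and 8 of 10 were higher in every App_NCD than in any WT_NCD library, beside 7.66%; the exceptions were Tlr4 and Myd88. Without App_NCD 553, 10 of 10 rose on the high-fat diet (background 10.8%) and 9 of 10 on the control diet (10.2%). The groups then did not overlap for 10 of 10 on the high-fat (14.8%) and 9 of 10 on the control diet (14.3%). limma-voom called all 10 higher on both diets, beside 17.4% of all tested genes on the high-fat and 18.5% on the control diet. Scaled to homeostatic microglia markers instead, Tlr4, Myd88 and Tlr7 (on the high-fat diet, and without App_NCD 553 also on the control diet) changed sign, as described after the gene groups.

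**Figure D1:**
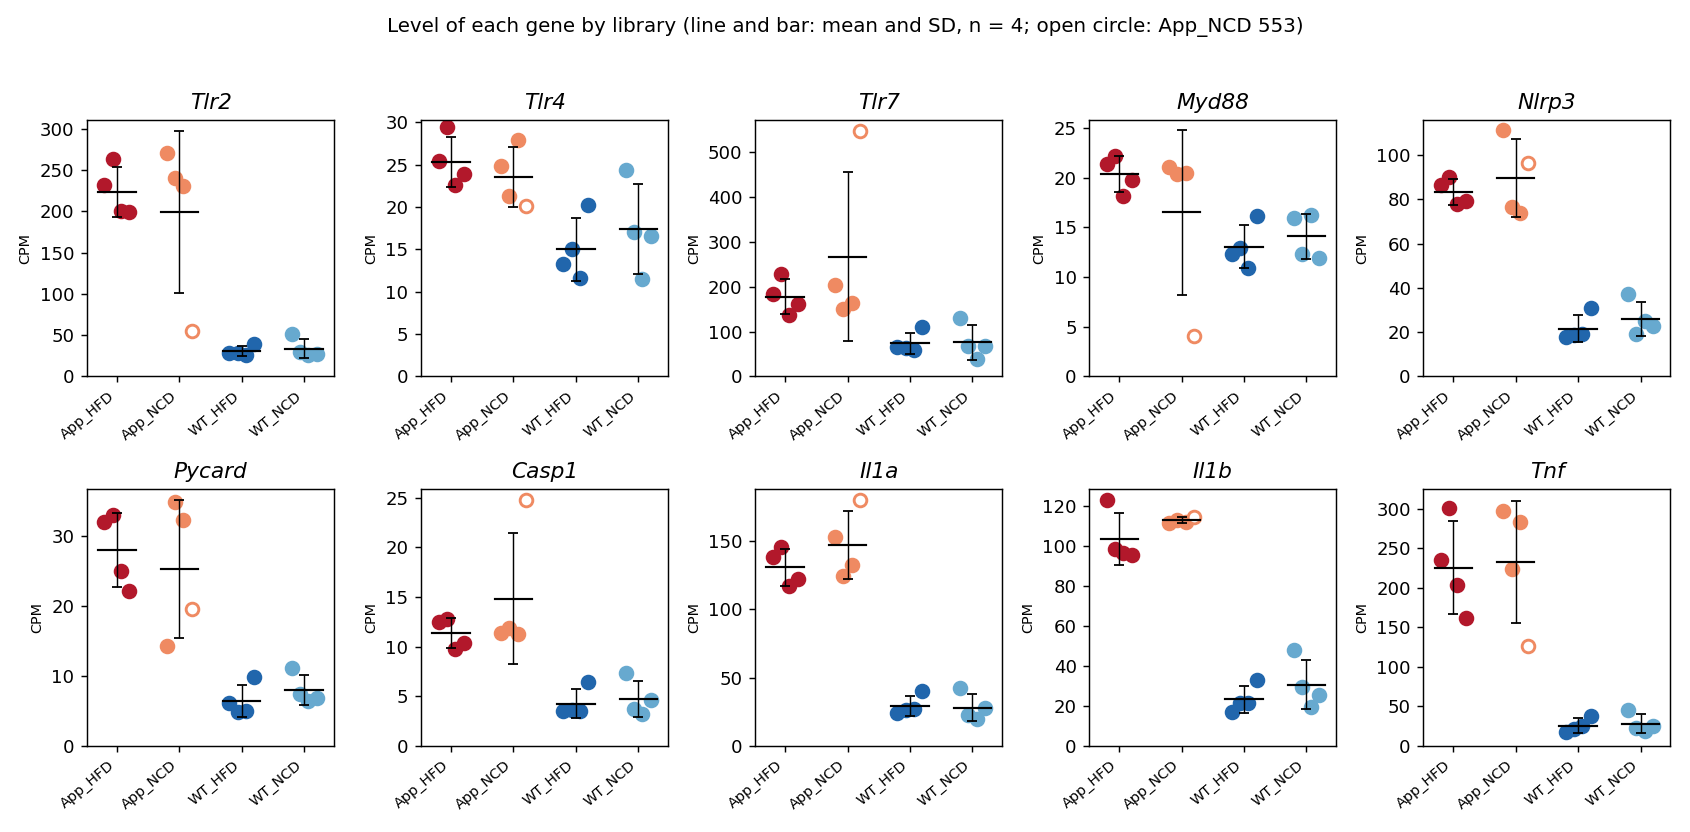
Level of each of the 10 genes in every library (points, CPM on a linear axis from 0) by group, with the mean and SD of each group as lines. Tnf spans 162 to 301 CPM in App_HFD, against 16.9 to 38.1 CPM in WT_HFD, while Tlr4 and Myd88 differ least between groups; the open circle is App_NCD 553.

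**Figure D2:**
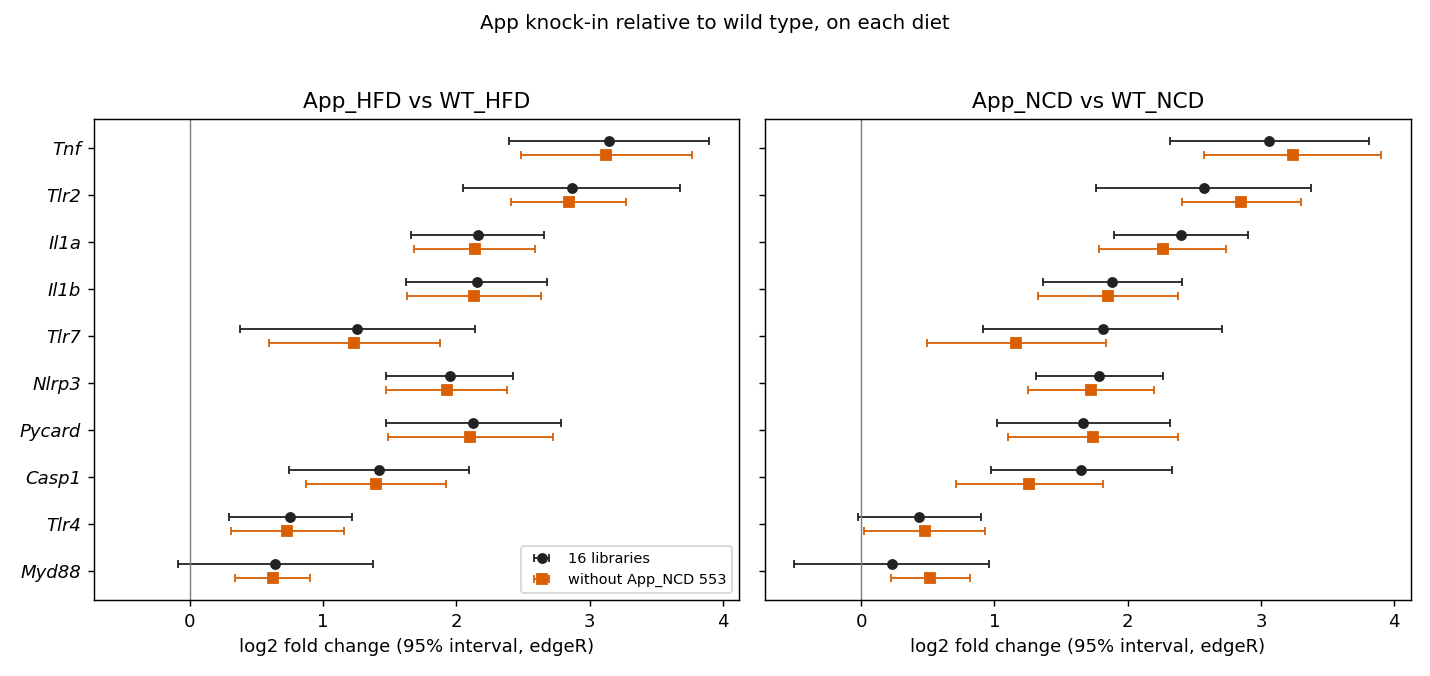
log2 fold change of App knock-in over wild type for each gene on the high-fat diet (left) and the control diet (right), with 95% intervals, from all 16 libraries (circles) and without App_NCD 553 (squares). Tnf is highest on both diets, at 3.15 and 3.06 with 16 libraries, and the interval of Myd88 includes 0 unless App_NCD 553 is left out; all values are under TMM scaling, and Tlr4, Myd88 and Tlr7 (high-fat diet, and without App_NCD 553 also control diet) change sign when scaled to microglia markers.

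Among the receptors, Tlr2, which with TLR1 or TLR6 senses bacterial lipoproteins (chr3:83836272-83841767, minus strand, mm10), differed most. Tlr2 was at 232, 263, 200.5 and 199 CPM in App_HFD, against 29.0, 28.1, 26.35 and 39.2 CPM in WT_HFD. It was at 271, 240.4, 231 and 54.9 CPM in App_NCD, against 51.2, 29.6, 25.8 and 27.8 CPM in WT_NCD. The groups did not overlap on either diet, but App_NCD 553, at 54.9 CPM, was close to the highest WT_NCD library, WT_NCD 4, at 51.2 CPM. Tlr2 rose by 2.87 (SE 0.3825, adjusted p = 0.000241) on the high-fat and 2.57 (SE 0.378, adjusted p = 0.0005015) on the control diet, on the log2 scale. Without App_NCD 553 it was 2.84 and 2.85.

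Tlr7, an endosomal receptor of single-stranded RNA (chrX:167304929-167330558, minus strand), was at 183, 228, 137 and 161 CPM in App_HFD, against 66.3, 62.9, 58.3 and 109 CPM in WT_HFD. It was at 204.5, 151, 163 and 546.5 CPM in App_NCD, against 129, 67.5, 37.9 and 68.7 CPM in WT_NCD. Neither pair of groups overlapped, and the value of 546.5 CPM belonged to App_NCD 553. On the high-fat diet Tlr7 did not pass the test, with a log2 fold change of 1.26 (SE 0.416, adjusted p = 0.0872), and without App_NCD 553 it was 1.23 (SE 0.299, adjusted p = 0.00912), which passed the threshold. On the control diet Tlr7 rose by 1.81 (SE 0.422, adjusted p = 0.0148); the fold of 3.51 became 2.24 without App_NCD 553, where the adjusted p was 0.0212. The control-diet call was lost without WT_NCD 5, WT_NCD 11 or WT_NCD 12 (log2 fold changes of 1.55 to 1.73, adjusted p 0.0571 to 0.0589).

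Tlr4, the lipopolysaccharide receptor (chr4:66827584-66930284, plus strand), ranged over 22.6 to 29.4 CPM in App_HFD, against 11.6 to 20.2 CPM in WT_HFD. It ranged over 20.1 to 27.9 CPM in App_NCD, against 11.5 to 24.4 CPM in WT_NCD, and only the control-diet groups overlapped. On the high-fat diet its log2 fold change of 0.75 (SE 0.218, adjusted p = 0.04895) was just past the threshold. That call was lost in 12 of the 16 fits that left out 1 library, with log2 fold changes of 0.62 to 0.78 and adjusted p from 0.0616 to 0.177; it was kept without WT_NCD 4, WT_NCD 11, WT_HFD 16 or App_NCD 553. Tlr4 did not pass the test on the control diet, at 0.44 (SE 0.217, adjusted p = 0.213).

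Of the other 9 Toll-like receptor genes, 4 rose on the high-fat and 3 on the control diet, and the rest did not pass the test. The shares of all tested genes called higher were 5.09% and 6.50%, or 10.8% and 10.2% without App_NCD 553. Tlr13, a mouse receptor of bacterial ribosomal RNA, ranged over 90.2 to 137 CPM in App_HFD and 101 to 145 CPM in App_NCD, against 27.9 to 51.1 CPM in WT_HFD and 33.6 to 58.4 CPM in WT_NCD. Its log2 fold changes were 1.61 (SE 0.223, adjusted p = 0.000340) and 1.45 (SE 0.222, adjusted p = 0.000688). Tlr1 and Tlr6, partners of TLR2, rose as well: Tlr1 by 1.76 and 1.52 (adjusted p = 0.00109 and 0.00306), and Tlr6 by 1.28 and 0.96 (adjusted p = 0.00485 and 0.0254) on the log2 scale, on the high-fat and the control diet. These 2 genes were low, at 13.6 to 20.9 and 9.38 to 12.1 CPM in App_HFD, against 3.73 to 7.55 and 3.35 to 6.04 CPM in WT_HFD. The median log2 fold change of the 9 genes was 0.81 and 0.96, and without App_NCD 553 5 rose on each diet. Tlr12, chosen after its values were seen, did not pass the test with 16 libraries, at 2.46 and 1.35 (adjusted p = 0.0971 and 0.296). It was at 0 CPM in App_NCD 553, without which it rose by 2.44 and 1.72 (adjusted p = 1.36e-05 and 0.000459).

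Of 9 co-receptor and trafficking genes, 4 rose and 1 fell on the high-fat diet and 4 rose on the control diet, with medians of 0.99 and 0.89. Beside this, 5.09% and 6.50% of all tested genes were called higher, and the share called lower is not reported here. The largest changes were in Cd180, a relative of TLR4 without a signalling domain, and Ly86, which encodes its partner MD-1. Cd180 ranged over 78.3 to 118 CPM in App_HFD and 101 to 344.5 CPM in App_NCD, against 9.78 to 20.5 CPM in WT_HFD and 9.24 to 24.55 CPM in WT_NCD. Its log2 fold changes were 2.76 (SE 0.400, adjusted p = 0.000507) and 3.45 (SE 0.412, adjusted p = 8.16e-05). Ly86 rose by 2.82 and 3.91 (adjusted p = 0.00514 and 0.000519). In App_NCD 553 Cd180 was at 344.5 and Ly86 at 1929 CPM, and without that library the control-diet log2 fold changes were 2.86 and 2.84. Cd14, the co-receptor that hands lipopolysaccharide to TLR4, rose on the high-fat diet by 2.44 (SE 0.4865, adjusted p = 0.00587); on the control diet it was at 1.54 (SE 0.472, adjusted p = 0.0560), and 1.88 (SE 0.224, adjusted p = 3.97e-05) without App_NCD 553. Lgmn, an endosomal protease that cuts Toll-like receptors, rose on the control diet by 0.89 (adjusted p = 0.0233) and on the high-fat diet by 0.82 (adjusted p = 0.03625). Of genes chosen after their values were seen, Lbp, the plasma lipopolysaccharide-binding protein, was the 1 that fell (log2 fold change -1.01, adjusted p = 0.0160, high-fat diet), and Ly96, encoding the TLR4 partner MD-2, rose on the control diet by 2.81 (adjusted p = 0.04065), with 0.51 (adjusted p = 0.239) without App_NCD 553. On the high-fat diet Ly96 was at 1.06 (adjusted p = 0.5667), and at 1.03 (adjusted p = 0.01391) without that library. Unc93b1, also chosen after its values were seen, did not pass the test with 16 libraries, at 0.985 on the high-fat and 0.457 on the control diet (adjusted p = 0.1655 and 0.4597). Without App_NCD 553 Unc93b1 rose by 0.962 and 0.758 (adjusted p = 0.002813 and 0.02153).

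Myd88, the adaptor of most Toll-like receptors (chr9:119335934-119341411, minus strand), was at 21.4, 22.2, 18.2 and 19.8 CPM in App_HFD, against 12.3, 12.9, 10.9 and 16.1 CPM in WT_HFD. It was at 21.1, 20.4, 20.5 and 4.09 CPM in App_NCD, against 16.0, 12.4, 16.2 and 11.9 CPM in WT_NCD. App_NCD 553, at 4.09 CPM, was the lowest of all libraries, while the other 3 App_NCD libraries lay above every WT_NCD library. With 16 libraries Myd88 did not pass the test, with log2 fold changes of 0.64 (SE 0.345, adjusted p = 0.370) and 0.23 (SE 0.344, adjusted p = 0.692). Without App_NCD 553 it rose on both diets, by 0.62 (SE 0.131, adjusted p = 0.003755) and 0.52 (SE 0.140, adjusted p = 0.0200). Exons of Myd88 overlap Acaa1a on the opposite strand, which averaged 99.8 CPM in App_HFD, 61.9 in App_NCD, 101 in WT_HFD and 114 in WT_NCD. In App_NCD the values of Acaa1a were spread from 8.43 to 93.6 CPM, with a median of 72.7 CPM. Whether counting used the strand is not given in the sources used here, so the level of Myd88 is uncertain.

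A list of 20 other signalling genes held mainly adaptors and kinases, and also Slc15a4 and the transcription factors Irf3, Irf5 and Irf7. On the high-fat diet 3 rose and on the control diet 4, beside 5.09% and 6.50% of all tested genes. The rest did not pass the test, and the medians of 0.15 and 0.08 were near those of all genes. Ticam2, which encodes the TLR4 adaptor TRAM, ranged over 9.49 to 14.75 CPM in App_HFD and 8.745 to 14.8 CPM in App_NCD, against 2.91 to 5.78 CPM in WT_HFD and 3.24 to 6.43 CPM in WT_NCD, and its log2 fold changes were 1.70 (SE 0.271, adjusted p = 0.00109) and 1.52 (SE 0.269, adjusted p = 0.00223). Irak4, the kinase that binds MyD88, rose by 0.86 and 0.71 (adjusted p = 0.0129 and 0.0344), and Irf5, a transcription factor of this pathway, by 1.43 and 1.11 (adjusted p = 0.0130 and 0.0447). Without App_NCD 553, 6 rose and 1 fell on each diet, beside 10.8% and 10.2% of all tested genes called higher. Those that fell, named after their values were seen, were Sarm1 on the high-fat diet (-0.47, adjusted p = 0.03829) and Tab1 on the control diet (-0.41, adjusted p = 0.01998). The share of all tested genes called lower is not reported here.

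Of 15 genes of NF-kB subunits and feedback inhibitors, 6 rose on the high-fat and 5 on the control diet, beside 5.09% and 6.50% of all tested genes. The rest did not pass the test, and the medians were 0.72 and 0.44. Without App_NCD 553, 9 rose on each diet, beside 10.8% and 10.2% of all tested genes. Sigirr, an inhibitory receptor chosen here after its values were seen, then fell on the high-fat diet (-0.94, adjusted p = 0.03836). The share of all tested genes called lower is not reported here. The leading members were genes that NF-kB itself is known to induce. Tnfaip3, encoding the inhibitor A20, ranged over 478 to 627 CPM in App_HFD and 312 to 634 CPM in App_NCD, against 91.4 to 141 CPM in WT_HFD and 82.9 to 174 CPM in WT_NCD. Its log2 fold changes were 2.31 (SE 0.249, adjusted p = 3.76e-05) and 1.99 (SE 0.2465, adjusted p = 0.000115). Nfkbiz, a nuclear member of the IκB family, rose by 2.22 (SE 0.286, adjusted p = 0.000170) and 2.35 (SE 0.287, adjusted p = 0.000102). Rel, a subunit of NF-kB, rose by 0.90 and 1.41 (adjusted p = 0.0495 and 0.00326), and Nfkbia, encoding the inhibitor IκBα, by 1.27 and 0.91 (adjusted p = 0.00383 and 0.0273). Immediate early genes, which are also induced when cells are dissociated, summed over 12 genes to 4398 to 6233 CPM in App_HFD and 3217 to 5475 CPM in App_NCD, against 2241 to 3228 CPM in WT_HFD and 2097 to 3748 CPM in WT_NCD. Of these 12 immediate early genes, 7 rose on the high-fat and 3 on the control diet, beside 5.09% and 6.50% of all tested genes. Without App_NCD 553, 11 and 10 of these immediate early genes rose, beside 10.8% and 10.2%. Their part in the levels of Tnf, the interleukin-1 genes and the NF-kB genes was not tested.

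The 3 inflammasome genes rose on both diets. Nlrp3, the sensor (chr11:59541568-59566956, plus strand), was at 86.4, 90.1, 77.9 and 79.0 CPM in App_HFD, against 17.6, 18.9, 19.2 and 30.75 CPM in WT_HFD. It was at 111, 76.6, 73.9 and 96.2 CPM in App_NCD, against 37.15, 19.0, 24.8 and 22.65 CPM in WT_NCD. Every knock-in library was at least as high as 73.9 CPM and every wild-type library at most 37.15 CPM, and App_NCD 553 lay within the range of its group. Nlrp3 rose by 1.95 (SE 0.226, adjusted p = 6.59e-05) and 1.79 (SE 0.224, adjusted p = 0.000125) on the log2 scale.

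Pycard, the gene of the adaptor ASC (chr7:127989708-127993867, minus strand), ranged over 22.1 to 33.0 CPM in App_HFD and 14.3 to 34.85 CPM in App_NCD, against 4.785 to 9.79 CPM in WT_HFD and 6.42 to 11.1 CPM in WT_NCD. App_NCD 537, at 14.3 CPM, was the lowest knock-in library and lay above all wild-type libraries. Pycard rose by 2.13 (SE 0.310, adjusted p = 0.000523) and 1.67 (SE 0.305, adjusted p = 0.00299). Casp1, the gene of caspase-1 (chr9:5298517-5307265, plus strand), ranged over 9.78 to 12.8 CPM in App_HFD and 11.3 to 24.8 CPM in App_NCD, against 3.47 to 6.46 CPM in WT_HFD and 3.17 to 7.29 CPM in WT_NCD, and the groups did not overlap. The value of 24.8 CPM was that of App_NCD 553, and the other App_NCD libraries lay between 11.3 and 11.9 CPM. Casp1 rose by 1.42 (SE 0.318, adjusted p = 0.0123) on the high-fat diet and 1.65 (SE 0.320, adjusted p = 0.004405) on the control diet, where it was 1.26 (SE 0.258, adjusted p = 0.00386) without App_NCD 553. The high-fat call was lost without WT_HFD 2, WT_HFD 3 or WT_HFD 15, with adjusted p between 0.0508 and 0.0546.

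Of 18 other inflammasome genes, 4 rose on the high-fat and 6 on the control diet, beside 5.09% and 6.50% of all tested genes. The rest did not pass the test, and the medians were 0.45 and 0.52. The 3 leading genes were the Naip family, sensors of bacterial secretion and flagellin proteins that act with NLRC4. Naip2 ranged over 44.2 to 63.95 CPM in App_HFD and 42.7 to 66.8 CPM in App_NCD, against 10.95 to 18.6 CPM in WT_HFD and 13.0 to 22.0 CPM in WT_NCD, with log2 fold changes of 1.90 (SE 0.211, adjusted p = 4.46e-05) and 1.72 (SE 0.209, adjusted p = 0.000102). Naip5 rose by 1.53 and 1.37 (adjusted p = 0.0009345 and 0.00195) and Naip6 by 1.59 and 1.89 (adjusted p = 0.00556 and 0.00150). The Naip genes are close copies between which reads can be split, so the value of each is uncertain. Without App_NCD 553, 10 rose on the high-fat and 6 on the control diet, beside 10.8% and 10.2% of all tested genes.

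The 3 cytokine genes rose on both diets, with no overlap between genotypes. Tnf (chr17:35199381-35202007, minus strand), whose upstream sequence held an NF-kB pattern and a TATA box, was at 235.5, 301, 204 and 162 CPM in App_HFD, against 16.9, 21.3, 25.6 and 38.1 CPM in WT_HFD. It was at 298, 223, 283 and 127 CPM in App_NCD, against 45.3, 22.9, 19.0 and 24.4 CPM in WT_NCD. The lowest knock-in library, App_NCD 553 at 126.7 CPM, lay well above the highest wild-type library, WT_NCD 4 at 45.3 CPM. Tnf averaged 226 ± 58.75 CPM in App_HFD and 233 ± 77.7 CPM in App_NCD, against 25.5 ± 9.10 CPM in WT_HFD and 27.9 ± 11.8 CPM in WT_NCD (SD, n = 4 each). It rose by 3.15 (SE 0.352, adjusted p = 4.87e-05) on the high-fat diet, with a 95% interval of 2.40 to 3.90, and by 3.06 (SE 0.351, adjusted p = 5.73e-05) on the control diet, with an interval of 2.32 to 3.81.

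Il1b, the gene of interleukin-1β (chr2:129364570-129371139, minus strand), was at 123, 98.4, 96.8 and 95.65 CPM in App_HFD, against 17.1, 21.65, 21.3 and 33.0 CPM in WT_HFD. It was at 111, 113, 112 and 115 CPM in App_NCD, against 47.85, 29.4, 19.2 and 25.7 CPM in WT_NCD. The App_NCD libraries, App_NCD 553 included, lay within a few CPM of each other, and no groups overlapped between genotypes. Il1b rose by 2.15 (SE 0.249, adjusted p = 6.45e-05) and 1.89 (SE 0.246, adjusted p = 0.000178). Il1a, the gene of interleukin-1α (chr2:129299610-129309972, minus strand), lies 54597 bases from Il1b on the same strand. It ranged over 117 to 146 CPM in App_HFD and 124 to 180.2 CPM in App_NCD, against 23.8 to 40.35 CPM in WT_HFD and 19.7 to 42.2 CPM in WT_NCD, without overlap. Il1a rose by 2.16 (SE 0.235, adjusted p = 3.87e-05) and 2.40 (SE 0.237, adjusted p = 1.42e-05). Both genes have a gene on the opposite strand whose exons overlap theirs: Il1bos averaged 0.216 CPM in App_HFD and 0.172 CPM in App_NCD, against 0.03935 CPM in WT_HFD and 0.156 CPM in WT_NCD. Gm14023, which overlaps Il1a, averaged 5.655 CPM in App_HFD and 6.83 CPM in App_NCD, against 2.01 CPM in WT_HFD and 1.97 CPM in WT_NCD. Reads of these partners may count for the interleukin genes, or the reverse.

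Of 8 tested genes of interleukin-1 and interleukin-18 receptors and antagonists, 2 rose on the high-fat and 3 on the control diet, beside 5.09% and 6.50% of all tested genes. The rest did not pass the test, and the medians were 0.28 and 0.58. Without App_NCD 553, when 9 genes were tested, 3 rose on each diet, beside 10.8% and 10.2%, and the medians were -0.086 and 0.29. Il1rl1, the interleukin-33 receptor, was low, at 7.24 to 10.2 CPM in App_HFD and 4.29 to 10.9 CPM in App_NCD, against 1.23 to 3.12 CPM in WT_HFD and 1.31 to 2.55 CPM in WT_NCD, and rose by 2.11 (SE 0.329, adjusted p = 0.000939) and 2.14 (SE 0.329, adjusted p = 0.000747). Il1rn, encoding the interleukin-1 receptor antagonist, rose on the control diet by 2.75 (SE 0.507, adjusted p = 0.00315); it did not pass the test on the high-fat diet, at 1.43 (SE 0.487, adjusted p = 0.0977), but did so without App_NCD 553, at 1.41 (adjusted p = 0.03829). Il18bp, which binds interleukin-18, rose by 0.63 and 0.72 (adjusted p = 0.0372 and 0.0171). Of 10 genes of TNF receptors and release, 3 rose on the high-fat and 2 on the control diet, beside 5.09% and 6.50% of all tested genes. The rest did not pass the test, and the medians were 0.47 and 0.35. Without App_NCD 553, 5 rose on each diet, beside 10.8% and 10.2%. Adam17, the protease that releases TNF from the cell surface, ranged over 104.5 to 125 CPM in App_HFD and 124 to 158 CPM in App_NCD, against 68.9 to 81.8 CPM in WT_HFD and 77.85 to 93.4 CPM in WT_NCD, with log2 fold changes of 0.57 (SE 0.119, adjusted p = 0.00790) and 0.70 (SE 0.119, adjusted p = 0.00156). Ripk1, a kinase downstream of TNF receptors, rose by 0.53 and 0.71 (adjusted p = 0.0345 and 0.00600), and Tnfrsf1b, the TNF receptor of immune cells, by 1.06 (SE 0.291, adjusted p = 0.03845) on the high-fat diet. On the control diet Tnfrsf1b was at 0.57 (adjusted p = 0.2185), and at 0.81 (adjusted p = 0.006445) without App_NCD 553.

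**Figure D3:**
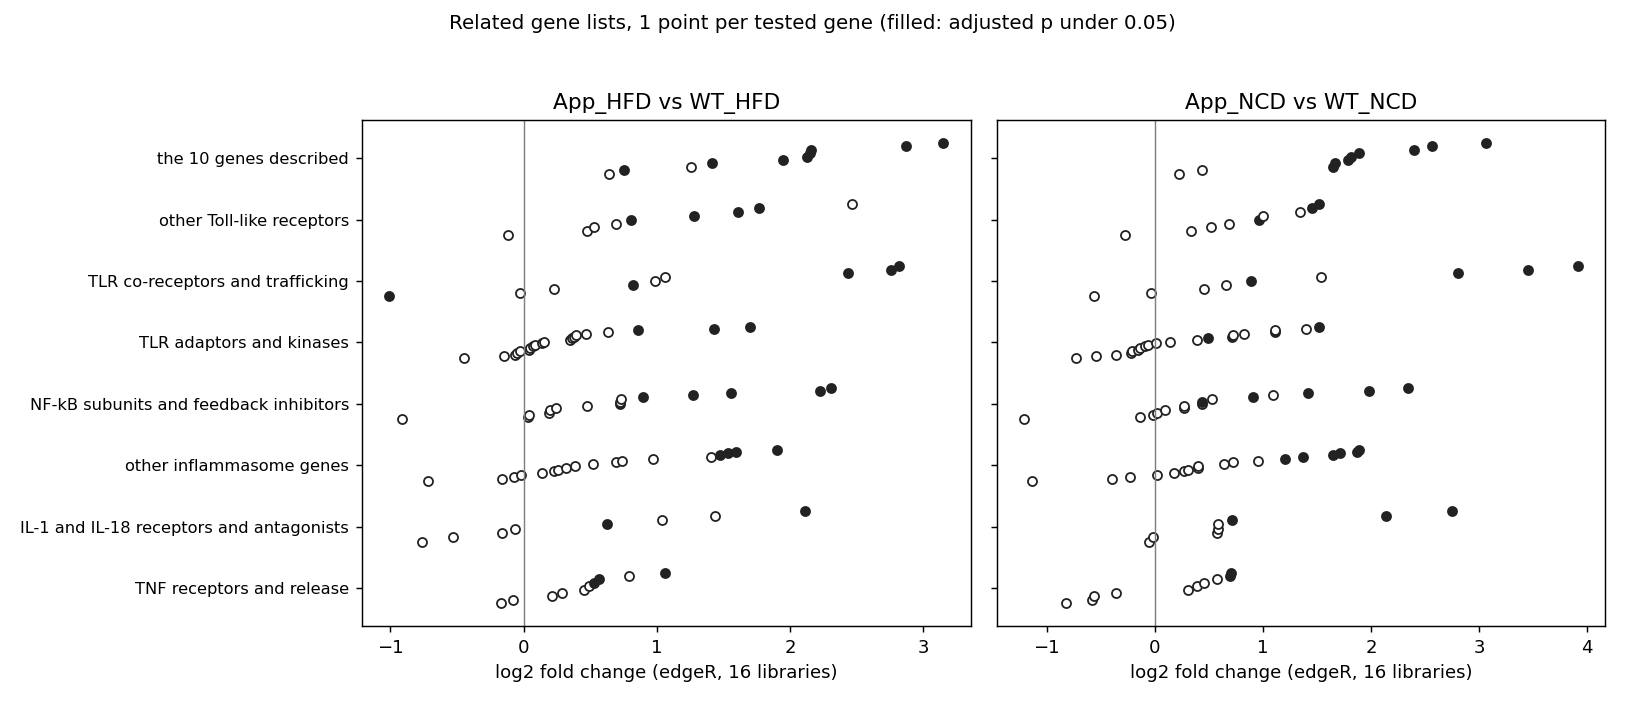
log2 fold change of App knock-in over wild type for each tested gene (points, filled where called) of the 7 related gene lists, on the high-fat diet (left) and the control diet (right). Filled points to the right of 0 number 4 of 9 and 3 of 9 in the other Toll-like receptors, beside 5.09% and 6.50% of all tested genes. In the list of adaptors and kinases, which centres near 0, they number 3 of 20 and 4 of 20.

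Per kilobase of annotated exon, the order of the 10 genes was compared in the 7 App libraries without App_NCD 553 and in the 8 WT libraries. In the App libraries Tnf was highest, at 149 ± 32.1 CPM per kb (mean and SD), followed by Tlr2 at 77.6 ± 9.20, Il1a at 67.55 ± 6.65, Il1b at 56.2 ± 5.47 and Tlr7 at 43.0 ± 7.82 CPM per kb. Nlrp3 was at 20.95 ± 3.17 CPM per kb, and Myd88, Casp1, Pycard and Tlr4 were between 4.51 and 7.96 CPM per kb on average. The ranges of neighbours overlapped except between Tnf and Tlr2, between Tlr7 and Nlrp3 and between Nlrp3 and Myd88. In the WT libraries Tlr7 was first, at 18.4 ± 7.22 CPM per kb, and Tnf was at 16.3 ± 6.02, Il1a at 14.5 ± 4.18, Il1b at 14.1 ± 5.23 and Tlr2 at 10.7 ± 2.91 CPM per kb. There the ranges of all neighbours in the order overlapped. The exon length of Pycard includes a long second transcript, so its level per kb is uncertain.

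Markers of microglia moved with these genes. Of the 15 homeostatic markers, 13 rose on the high-fat and 9 on the control diet, and the mean log2 CPM of the list was higher by 1.46 (exact permutation p = 0.0286, the smallest possible) and 1.07 (exact p = 0.0571, or 1.31 and p = 0.0286 without App_NCD 553). Of the 16 disease-associated markers, 16 and 15 rose, with differences of 4.26 and 4.15 (exact p = 0.0286 each). Beside both lists, 5.09% and 6.50% of all tested genes were called higher. Macrophages of the brain borders and blood leukocytes also express these genes. Border macrophage markers had smaller differences in the same direction, which did not pass the test, while monocyte and neutrophil markers had lower means in App groups. The 8 border macrophage markers summed to 849 to 1021 CPM in App_HFD and 827 to 1278 CPM in App_NCD, against 513 to 944 CPM in WT_HFD and 755 to 1225 CPM in WT_NCD, with differences of 0.53 and 0.01 (exact p = 0.114 and 0.971). The 5 monocyte markers summed to at most 13.97 CPM in an App library, with differences of -0.90 and -0.76 (exact p = 0.0286 and 0.343). The 9 neutrophil markers summed to 6.35 to 22.4 CPM in App_HFD and 17.3 to 69.2 CPM in App_NCD, against 15.9 to 262.5 CPM in WT_HFD and 15.7 to 343 CPM in WT_NCD, with differences of -1.69 and -1.40 (exact p = 0.0286 and 0.200). WT_NCD 4 had the highest level of its group for 9 of the 10 genes and WT_HFD 16 for 10 of 10. These libraries also had the highest neutrophil sums of the wild-type libraries, 343 and 262.5 CPM against 15.7 to 39.2 CPM, and homeostatic microglia sums of 6809 and 5839 CPM. With both of them and App_NCD 553 left out, 10 of 10 genes rose on the high-fat diet (background 12.7%) and on the control diet (12.5%). The part of cell numbers in the fold changes above was not tested.

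When libraries were scaled to the homeostatic microglia list in place of TMM, the median log2 fold change of all tested genes was -1.46 on the high-fat and -1.07 on the control diet, and the 10 genes lay on both sides of 0. On the high-fat diet 5 of 10 rose and 2 fell, beside 1.05% and 74.6% of all tested genes; on the control diet 6 rose and 1 fell, beside 2.09% and 51.2%. Tnf remained higher, by 1.68 and 2.01 (adjusted p = 0.0002285 and 0.000142) on the high-fat and the control diet, as did Tlr2, by 1.42 and 1.40 (adjusted p = 0.000626 and 0.000703). Il1a rose by 0.73 and 1.54 (adjusted p = 0.0487 and 0.001085) and Il1b by 0.73 and 0.97 (adjusted p = 0.0329 and 0.0111). Nlrp3 had log2 fold changes of 0.53 and 0.87 (adjusted p = 0.118 and 0.0239), and Pycard of 0.71 and 0.63 (adjusted p = 0.0263 and 0.06015). Casp1 was at 0.01 and 0.92 (adjusted p = 0.983 and 0.0655) and Tlr7 at -0.17 and 1.22 (adjusted p = 0.7525 and 0.0457). On the control diet these 2 values rested on App_NCD 553, without which Casp1 was at 0.02 (adjusted p = 0.9455) and Tlr7 at -0.043 (adjusted p = 0.8883). Tlr4 and Myd88 had the opposite sign to TMM scaling, at -0.68 and -0.56 (adjusted p = 0.0276 and 0.0826) and -0.80 and -1.03 (adjusted p = 0.0233 and 0.00920). All 10 genes lay above the median of all tested genes on both diets. A change of size factors shifts all genes about alike, so this position carries over from TMM scaling and is no separate result. With App_NCD 553 also left out, 6 rose and 2 fell on the high-fat diet (background 1.33% and 81.8%) and 4 rose and 2 fell on the control diet (1.68% and 75.3%). This scaling sets the marker list, not the number of microglia, to be equal: the level of its markers per cell was not measured, and they did not move alike, with Tmem119 at log2 fold changes of 0.34 and -0.35 (not called) and C1qb at 2.06 and 1.77 (called) under TMM.

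**Figure D4:**
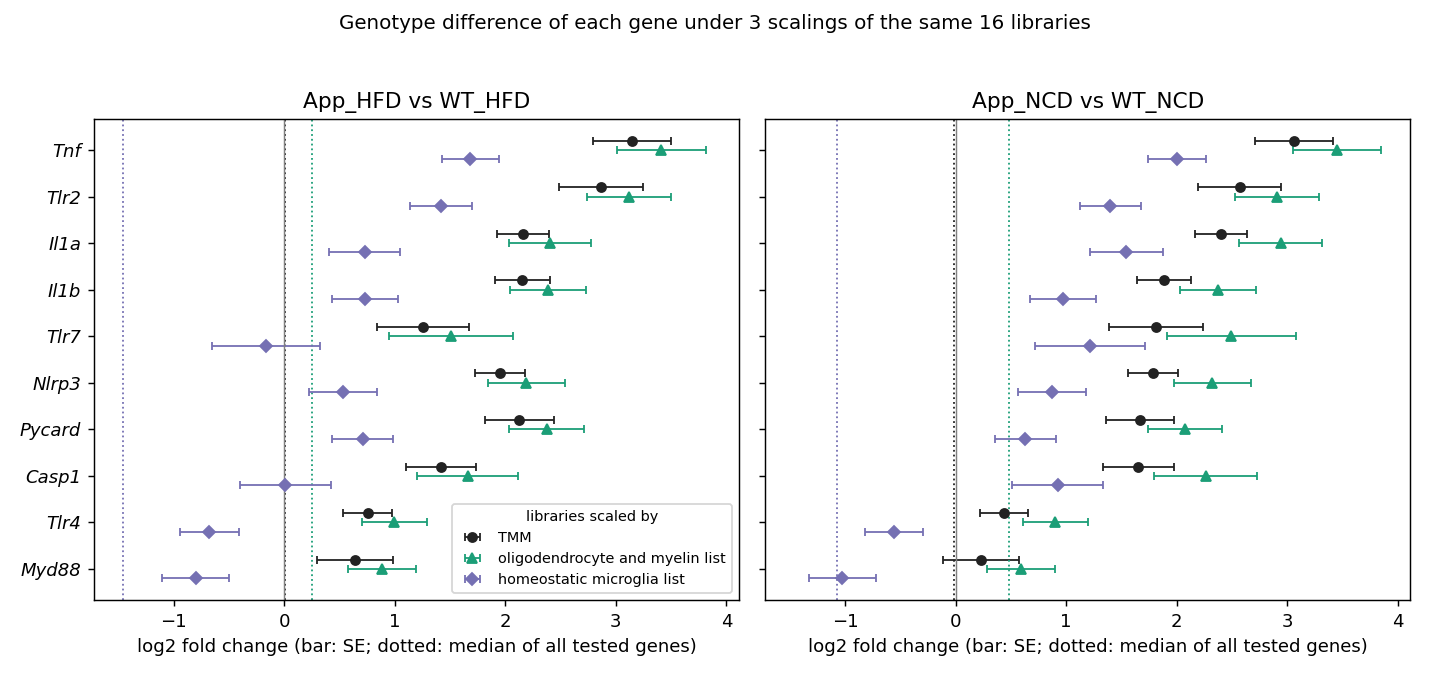
log2 fold change of App knock-in over wild type for the 10 genes (points, bars 1 SE) under TMM scaling and with size factors from the oligodendrocyte and myelin list or the homeostatic microglia list, on the high-fat diet (left) and the control diet (right). Dotted lines mark the median of all tested genes. Tnf stays above 1.6 in every case, while Tlr4 and Myd88 on both diets, and Tlr7 on the high-fat diet, change sign with the microglia list.

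The high-fat diet changed 0 of the 10 genes in either genotype at the threshold, and for 0 of 10 the genotypes differed in the diet effect (edgeR); 0% of all tested genes were called in these comparisons. At an unadjusted p under 0.05, edgeR had 2586 of all tested genes for the diet in App mice, 419 in wild type and 639 for the interaction; without App_NCD 553 these were 1576, 1139 and 614. DESeq2 called 95, 5 and 0 of all genes, limma-voom 161, 6 and 0, and neither called a member. The lowest unadjusted p of a member in edgeR with 16 libraries was 0.122, for Il1b in wild type, where it was 0.106 without App_NCD 553. In App mice, log2 fold changes of HFD over NCD ran from -0.59 for Tlr7 (95% interval -1.46 to 0.29) to 0.30 for Myd88 (-0.43 to 1.03). Both extremes rested on App_NCD 553, without which Tlr7 was at 0.04 (-0.64 to 0.72) and Myd88 at -0.01 (-0.31 to 0.29). In wild type the values ran from -0.39 for Il1b (-0.90 to 0.12) to 0.07 for Il1a (-0.41 to 0.55). The interaction, the diet effect in App mice minus that in wild type, ran from -0.56 for Tlr7 (-1.79 to 0.68) to 0.46 for Pycard (-0.44 to 1.35); without App_NCD 553 these were 0.07 (-0.86 to 1.00) and 0.37 (-0.51 to 1.24). For Tnf the interval was -0.74 to 0.64 in App mice and -0.82 to 0.56 in wild type, so diet effects up to about those sizes could not be told from 0.

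**Figure D5:**
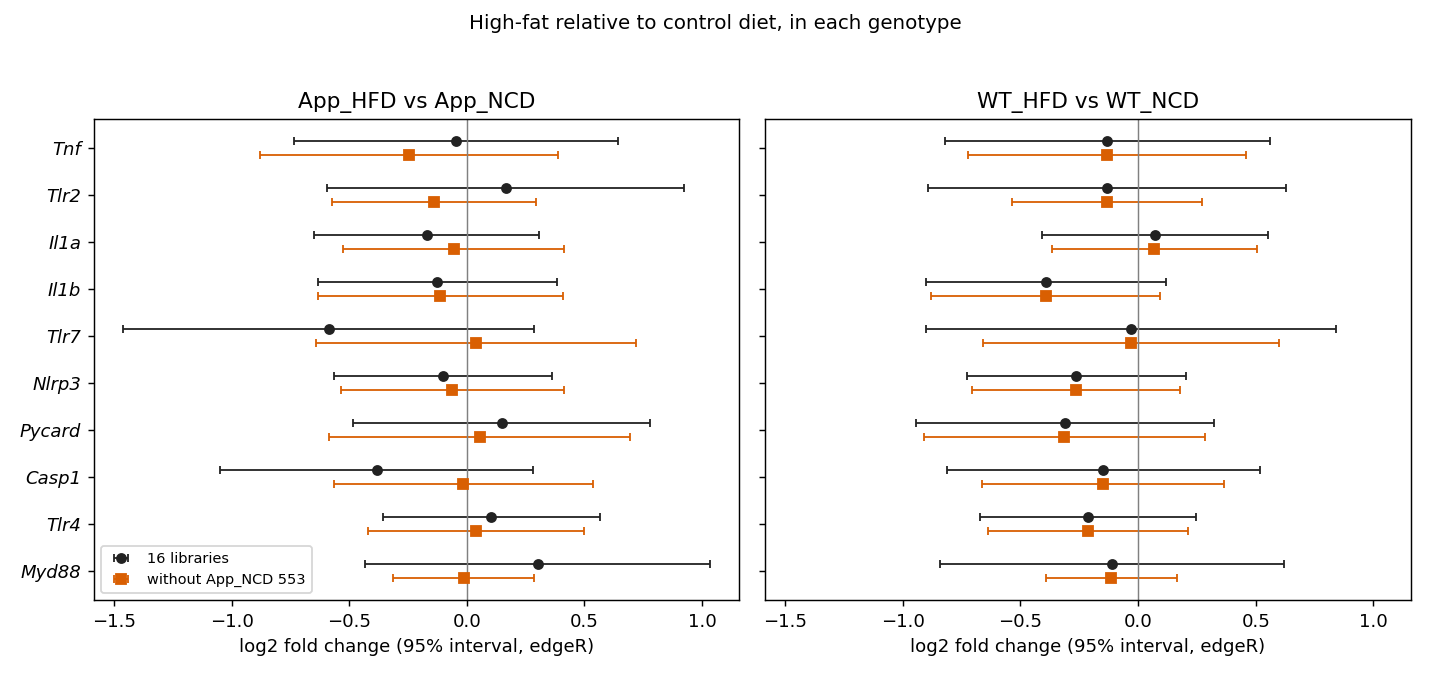
log2 fold change of the high-fat over the control diet for each gene in App mice (left) and wild type (right), with 95% intervals, from all 16 libraries (circles) and without App_NCD 553 (squares). Every interval includes 0, and the largest shift from leaving out App_NCD 553 is in Tlr7.

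The genes whose pattern was nearest to each member were found as the smallest root mean square difference of mean-centred log2 CPM, among 14878 genes averaging 1 CPM or more and over the 15 libraries without App_NCD 553, which share the difference between genotypes. Tlr2 was nearest to AU020206, Gpr84 and Mpeg1 (0.144, 0.155 and 0.186), and Tnf to Cd68, Gpr84 and Ly9 (0.209, 0.234 and 0.257). Il1a was nearest to Cd83, Ccrl2 and Plek, Il1b to C3ar1, Fcgr2b and Tmem106a and Nlrp3 to Abcb1b, Rasgef1b and Apobr. Pycard was near to Gngt2 and Cd300c2, Casp1 to Gsap, Srgn and Lgals9 and Tlr7 to 9930111J21Rik2, Gm3383 and Lilra5. Myd88 was nearest to Snx5, Nfkb2 and Nfkb1, with differences of 0.0857, 0.0865 and 0.0939, and Tlr4 to Il16, Dse and Slc29a1. The difference is not scaled to the spread of a gene, so a gene that varies little has small values. The SD of log2 CPM over these libraries was 0.345 for Myd88, against 1.505 for Tlr2. Over all 16 libraries the first gene was the same for Tlr2 (AU020206), Tlr4 (Il16), Nlrp3 (Abcb1b) and Pycard (Gngt2). It was another gene for the others, namely Gpr84 for Tnf, Plek for Il1a, Lair1 for Il1b, Mlxipl for Casp1, Cited2 for Tlr7 and Nfkb2 for Myd88. Among the members themselves, over the 15 libraries, Tnf and Tlr2 were each other's nearest, as were Il1a and Il1b, Casp1 and Tlr7, and Tlr4 and Myd88. Among all 14878 genes, other genes were nearer: Tnf ranked 24 for Tlr2 and Tlr2 5 for Tnf. Il1a and Il1b ranked 30 for each other, Tlr7 75 for Casp1 and Casp1 9 for Tlr7. Myd88 ranked 331 for Tlr4 and Tlr4 1142 for Myd88. Over all 16 libraries Il1b was nearest to Nlrp3 among the members.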

How the data were processed

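The authors' deposited table holds an estimated count per gene and library, given as whole numbers. Per the submitters' processing notes, fastp 0.23.2, HISAT2 2.2.1, bedtools 2.25.0, StringTie 2.2.1 and mm10 were used; per the labels' protocols, poly(A) RNA went into directional libraries. The annotation and the use of strand in counting are not given in the sources used here, and StringTie can divide reads between overlapping or similar genes. The 16 libraries are from separate mice, per the labels, which give no batch, litter or day.

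The 10 genes and all gene lists were chosen with earlier results of these data known. Genes were filtered with filterByExpr (21768 of 53801 kept, 22322 without App_NCD 553), scaled by TMM and fitted with edgeR 4.0.16 (quasi-likelihood, robust) in R 4.3.3 with limma 3.58.1, with 4 groups and 12 residual degrees of freedom; the fit was tested on simulated data. Adjusted p-values are over all tested genes, with a threshold of 0.05. The SE of a log2 fold change is its size over the square root of F. CPM was computed from TMM-adjusted totals, and log2 CPM had a prior count of 0.5. Marker lists were compared as mean log2 CPM by 2-sided exact permutation, whose smallest p for 4 against 4 libraries is 0.0286. Alternatives used other size factors, filters and dispersions, DESeq2 1.42.0, limma-voom and fits without a library. The genes named were the 10 genes, the called genes of each list with the 3 smallest adjusted p per genotype comparison and the 3 genes nearest to each member; exceptions are stated beside them, and 1 gene near Pycard is not reported here. In the list of adaptors and kinases, 20 of 21 symbols were found (not Tasl), and Il18r1 did not pass the filter. Coordinates are from GENCODE mouse release 21 (mm10), which held 99.8% of the IDs. Totals were at least 64538297 per library and the smallest count of the 10 genes was 144, so counts limit their precision little. Some genes of the related lists had few counts, such as Tlr11, with 9 in App_NCD 538.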

Additional observations from a re-analysis of the deposited data

Results flagged for a closer look

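Of 40 sets of 4 libraries (10 genes in 4 groups), 8 held 1 library far from the other 3. Chance gives about 1 in 20 for independent, normally distributed sets. The genes of a group share the same 4 libraries, so these sets are not independent and their number cannot be judged against that rate. The 8 sets were flagged by the gap of that library to its nearest neighbour relative to the range of the group.

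In App_NCD, 3 were in App_NCD 553, the library rich in mitochondrial counts: Tlr7 was high at 546.5 CPM (nearest 204.5 CPM), Casp1 was high at 24.76 CPM (nearest 11.87 CPM), and Myd88 was low at 4.089 CPM (nearest 20.37 CPM). In WT_HFD, 3 were in WT_HFD 16, which had the highest level of its group for all 10 genes: Tlr7 was at 109.3 CPM (nearest 66.29 CPM), Nlrp3 at 30.75 CPM (nearest 19.2 CPM) and Casp1 at 6.462 CPM (nearest 3.579 CPM). In WT_NCD, Tlr2 was at 51.16 CPM in WT_NCD 4 (nearest 29.6 CPM). In App_HFD, Il1b was at 123.2 CPM in App_HFD 547 (nearest 98.4 CPM). The sums of homeostatic microglia, monocyte and neutrophil markers were also highest among wild-type libraries in WT_NCD 4 and WT_HFD 16; their part in these values was not tested.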

How the results depend on the processing

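Of the 10 genes, 6 to 10 passed the test, in either direction, in each genotype comparison over 28 alternatives (higher 5 to 10 on the high-fat and 4 to 10 on the control diet, lower at most 2, beside 1.05% to 17.4% and 1.68% to 22.0% of all tested genes called higher), and 7 to 9 (control diet) and 6 to 10 (high-fat diet) when each library was left out in turn. The diet and interaction counts were 0 in all alternatives run. Tnf, Tlr2, Il1a and Il1b were called higher in all 28 on both diets. Signs turned for Tlr4, Myd88 and Tlr7 with size factors from the homeostatic microglia list: Tlr4 was at -0.68 on the high-fat and -0.56 on the control diet, Myd88 at -0.80 and -1.03, and Tlr7 at -0.17 on the high-fat diet. With App_NCD 553 also left out, an alternative chosen after seeing the data, Tlr4 was at -0.68 and -0.79, Myd88 at -0.80 and -0.80 and Tlr7 at -0.17 and -0.043; Casp1 on the control diet was then at 0.02 (adjusted p = 0.9455) and Nlrp3 at 0.47 (adjusted p = 0.0980). The cause was not tested beyond the scaling itself. Leaving out App_NCD 553, WT_NCD 4 and WT_HFD 16 together was also chosen after seeing the data.

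Size factors from the oligodendrocyte and myelin list moved the median of all genes to 0.25 (high-fat) and 0.48 (control), and library totals alone to -0.09 and -0.29. Tlr4 on the high-fat diet lost its call with RLE size factors (0.72, adjusted p = 0.0547), totals alone (0.65, 0.284), oligodendrocyte size factors (1.00, 0.0585) and no filter (0.73, 0.0903). Fitting only the 8 libraries of a pair lost Tlr7 and Casp1 on the control diet (adjusted p = 0.130 and 0.0605). The highest diet log2 fold change of the 10 genes in wild type, 0.07, was -0.026 with oligodendrocyte size factors and -0.12 to 0.35 when 1 library was left out (-0.03 without WT_NCD 5, -0.05 without WT_NCD 11, -0.12 without WT_HFD 16). Of 280 member values for the diet in App mice 32 changed sign, of 280 in wild type 28 and of 270 for the interaction 28, and 0 were called (edgeR, DESeq2 and limma-voom). The homeostatic microglia difference on the control diet was 0.92 to 1.31 when 1 library was left out, with 1.31 (exact p = 0.0286) without App_NCD 553 and the scaling recomputed. The number of genes called over the whole table also moved by more than 1.5 times: higher on the control diet 1416, but 525 with totals alone, 4786 with oligodendrocyte size factors and 4036 with limma-voom. No paired analysis was possible because the 4 groups share no replicate number.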
